A study of Mus musculus with 12 samples.

Results

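Enzymes that write and erase marks on histones and DNA were described through N6-methyladenosine (m6A) on their own transcripts. The set held 10 genes: the histone lysine methyltransferases Ash1l, Nsd3, Setd2, Setd5 and Setdb1, the histone demethylases Kdm3a and Kdm3b, the histone acetyltransferases Kat6b and Crebbp, and the DNA dioxygenase Tet2. The members were chosen by gene symbol, and every peak listed under those symbols was taken. They accounted for 11 of the 1233 peaks and for 10 of the 1108 genes in the authors' deposited table of differential m6A peaks, with 2 peaks in Kdm3a and 1 in each other gene. The table holds only peaks that the authors called different between genotypes on these same libraries, so a listed difference was already a condition of entry.

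The knockout islets came from Mettl3 flox/flox mice that carry RIP-Cre, in which the rat insulin promoter drives Cre recombinase in β-cells, and the control islets from Mettl3 flox/flox mice. All mice were C57BL/6, 8 weeks old and fed normal chow. RNA of 12 knockout mice and of 9 control mice was combined into 3 pools per genotype, and each pool gave an m6A immunoprecipitation (IP) library and an input library, 12 libraries in all. An effect of Cre itself cannot be told apart from that of Mettl3 loss, and the islet cells other than β-cells keep Mettl3. In whole islets, fewer cells of a type and less RNA per cell cannot be told apart.

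m6A is the most common internal modification of mRNA. A nuclear complex with METTL3 as its catalytic subunit places it within the DRACH motif, mostly near stop codons and in long exons, and m6A readers such as the YTHDF proteins shorten the life of many marked transcripts. The enzymes described here act on chromatin instead: SET-domain proteins methylate histone lysines, Jumonji proteins and TET enzymes remove methyl groups by oxidation, and acetyltransferases open chromatin at enhancers and promoters. The layers meet in SETD2, since its product, histone H3 methylated on lysine 36, is bound by METTL14, the partner of METTL3, and guides m6A to transcribed genes. In mouse neural stem cells the Crebbp transcript is a described m6A target.

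Total reads lay between 17082320 and 20937525 per knockout library and between 16832779 and 22257803 per control library. The median enrichment over all listed peaks, as the ratio of IP RPM to input RPM (RPM being the read count relative to each library's total), was 4.47, 3.44 and 3.42 in knockout pools 1 to 3, against 5.23, 8.09 and 9.27 in control pools 1 to 3. Control pool 1 thus stood nearer to the knockout pools than the other 2 control pools did. β-cell markers with a listed peak (Mafa, Nkx6-1, Pcsk1, Slc30a8 and Ucn3, 5 of 14 genes) had a summed input of 287 to 338 RPM in knockout pools and 523 to 564 RPM in control pools. Mafa carried most of that gap, with 20.1 to 53.1 RPM in knockout pools and 172 to 207 RPM in control pools, and its 2 peaks were the only ones of these markers called lower in input. The other 4 genes summed to 267 to 287 RPM in knockout pools and 346 to 357 RPM in control pools, and the part of these markers in the results below was not tested. Endothelial markers (4 of 8 genes) summed to 42.4 to 84.2 RPM in knockout pools and 77.8 to 84.6 RPM in control pools. Other endocrine, exocrine or ductal, and stromal or immune markers (5 genes with a listed peak) overlapped between genotypes in summed input. In the edgeR test described below, enrichment was called higher at 3 of 5 endothelial and 1 of 3 stromal or immune peaks (2.27% of all listed peaks). It was called lower at 3 of 6 β-cell, 1 of 2 other endocrine and 1 of 1 exocrine or ductal peaks (55.6% of all). The reason was not tested. Mettl3 itself was not analysed here, so the genotype labels were not checked at the deleted gene.

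Sequence inside the peaks is shown first, because a METTL3 site needs the DRACH motif, in which D is A, G or T, R is A or G, and H is A, C or T. For Kdm3a exon 10, Kat6b and Setdb1, which were called lower in enrichment, and for Setd5, Setd2 and Tet2 as the peak of highest fold enrichment among the members in the authors' deposited table, the H3 lysine 36 methyltransferase and the DNA-modifying member, the 27 bases around the DRACH match with a GGAC core nearest the peak midpoint are given. Each is the transcript strand, 5′ to 3′, from the GENCODE M21 transcripts (GRCm38), and the capitals mark the DRACH match. Kdm3b was also called lower in enrichment, and its sequence is not shown here.
Kdm3a, exon 10 (chr6:71611722-71611748, minus strand): aaggcagaactGGACAttgccaccact
Kat6b, exon 2 (chr14:21517079-21517105, plus strand): gcttcatataaGGACCcagacaatcct
Setdb1, exon 13 (chr3:95338504-95338530, minus strand): tactatattttGGACAtcacctatggc
Setd5, exon 22 (chr6:113151290-113151316, plus strand): atcagacttacGGACTatcagtctgcc
Setd2, exon 15 (chr9:110594368-110594394, plus strand): acacctagcatGGACCctgtgtgctcc
Tet2, exon 3 (chr3:133486116-133486142, minus strand): caggggcttaaGGACAgaagccagggt
These matches lay 36 nt, 43 nt, 101 nt, -33 nt, 55 nt and 44 nt from the peak midpoint in that order, with positive distances downstream. DRACH, searched on the transcript strand only and counting overlapping matches, occurred within the 100 nt around the midpoint of 10 of the 11 peaks (90.9%), the exception being Setd2, and in 93.2% of the other listed peaks. A DRACH match with the GGAC core occurred in that window at 6 of the 11 peaks (54.5%) and in 40.6% of the others. A match describes the sequence and does not locate the modified base.

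The members' peaks mostly sat in coding exons other than the last one. Placed at its midpoint on the GENCODE M21 transcript, 8 of 11 peaks (72.7%) fell in an exon over 400 nt that was not the last one, against 218 of the 1219 other listed peaks that could be placed (17.9%). The last exon held 3 member peaks (27.3%) and 957 of the others (78.5%). Exon length alone did not set the members apart. All 11 lay in an exon over 400 nt, as did 95.7% of the others. The median exon was 873 nt for the members and 2064 nt for the others. By region, 9 member peaks (81.8%) were coding and 2 (18.2%) lay in the 3′UTR, against 42.1% and 47.4% of the others. The 400 nt limit was set after the positions were seen, and these shares are a description with no test.

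Ash1l carried its peak (chr3:88984089-88984868) in exon 3 of 28, an exon of 4558 nt, and Tet2 carried its peak (chr3:133485589-133486757) in exon 3 of 11, an exon of 3206 nt. The Setdb1 peak (chr3:95338379-95338858) lay in exon 13 of 22, the Setd2 peak (chr9:110592516-110594626) in exon 15 of 21, and the coding Kdm3a peak (chr6:71611517-71613840) in exon 10 of 26. In 3 genes the midpoint lay in the early part of the reading frame. It was 345 nt after the start codon in Nsd3 (chr8:25640547-25648501, exon 1 of 23), 174 nt after it in Kat6b (chr14:21516629-21517469, exon 2 of 17) and 350 nt after it in Crebbp (chr16:4179524-4213218, exon 2 of 31). Midpoints within 400 nt after the start codon made up 27.3% of member peaks and 6.76% of the other listed peaks on coding transcripts. This span ends just past the Nsd3 and Crebbp midpoints, and the 2 shares are a description with no test. Near the stop codon were Setd5 (chr6:113150186-113151816), with its midpoint 131 nt before it in exon 22 of 22, and the second Kdm3a peak (chr6:71589331-71590162), 98 nt past it in exon 26 of 26. The Kdm3b peak (chr18:34838300-34838510) lay in the 3′UTR, 738 nt past the stop codon in exon 24 of 24. Coordinates are in GRCm38, and no exon of another annotated gene overlapped a member peak. The authors' deposited annotation differed at some peaks. It placed the beginning and centre of the Kat6b peak in the 5′UTR. It placed the beginning of the Nsd3 peak in intron 1 and that of the second Kdm3a peak in the last intron. The positions given here hold for the GENCODE M21 transcripts used.

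**Figure D1:**
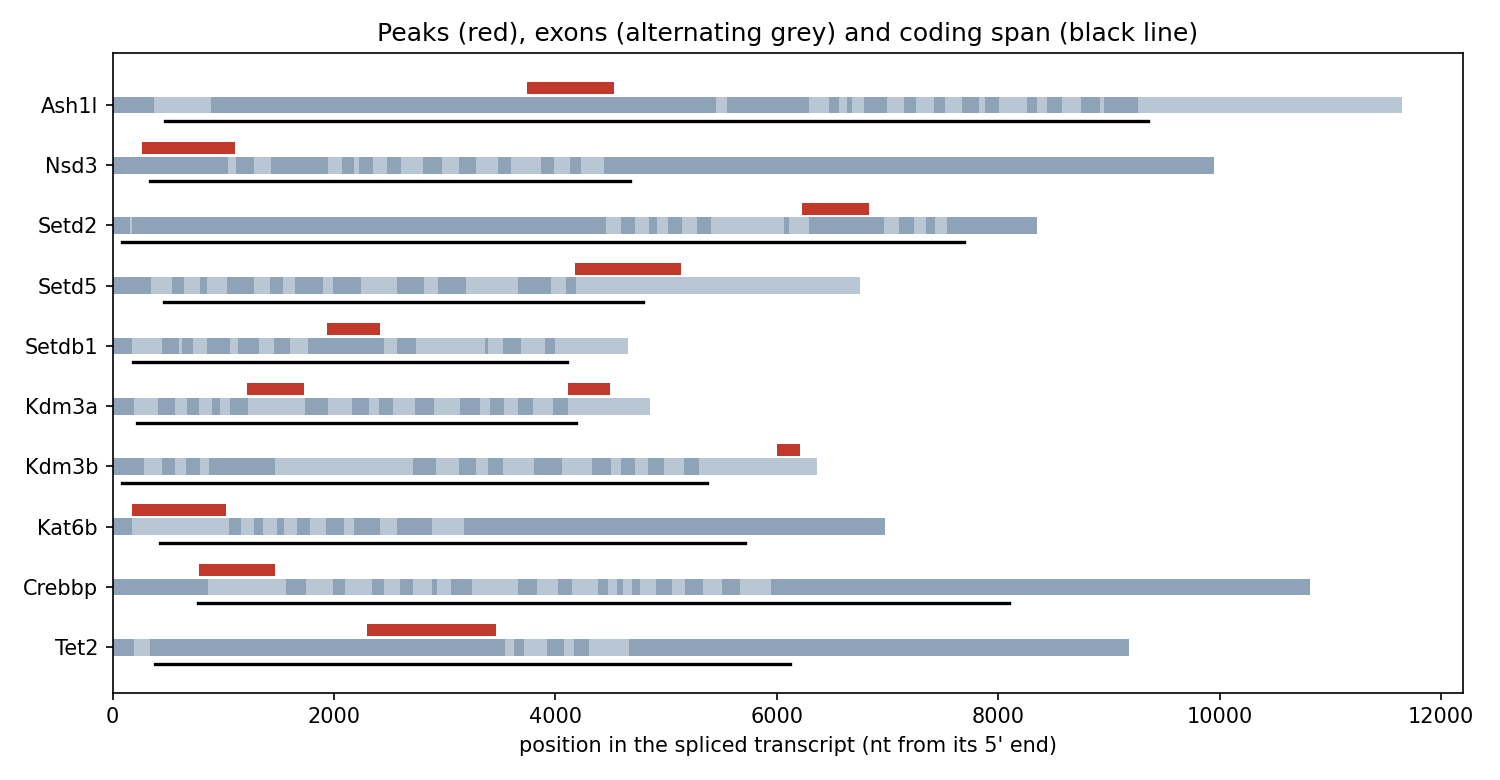
Each line is the spliced transcript of a member, drawn to scale in nt, with the coding part and the listed peak marked. In 8 of 11 cases the peak lies in an exon over 400 nt that is not the last one.

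**Figure D2:**
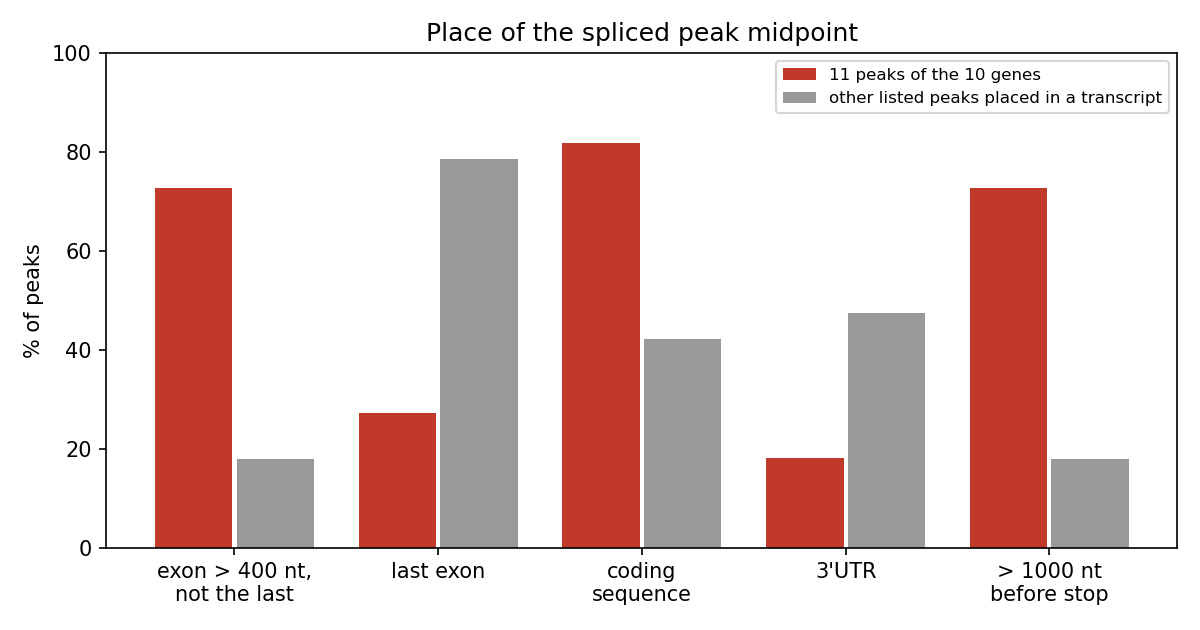
Percent of peaks in each position class for the 11 member peaks and for the other listed peaks. Member peaks were in the last exon in 27.3% of cases, against 78.5% of the others.

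The central question was whether m6A enrichment of these transcripts differed between islets with and without Mettl3 in β-cells. The fitted enrichment was lower in knockout pools at all 11 peaks, which the authors' list fixes for most peaks (92.9% of its entries are lower in the knockout). By edgeR's quasi-likelihood test of the change in the IP to input ratio, with the Benjamini-Hochberg adjustment over 1233 peaks and a threshold of 0.05, enrichment fell at 4 of the 11 (36.4%): Setdb1, Kdm3a exon 10, Kat6b and Kdm3b. Of all listed peaks, 55.6% were called lower, so the members' share was not above that of the list. The members' median log2 change was -0.75 and that of all listed peaks -1.02, with 8 of 11 members above the list's median. Enrichment was over 1 at all 11 peaks in every knockout and control pool. The authors listed regions called as peaks of IP over input, so this says little about the members. The share over all listed peaks was not computed.

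IP signal fell at 4 of 11 members (36.4%), namely Kdm3a exon 10, Setd5, Setd2 and Kat6b, against 64.8% of all listed peaks, and at no member was it called higher (2.92% of all listed peaks). The members' median log2 change in IP was -0.58 and the list's -0.76. Input, the abundance of the peak region in total islet RNA, rose at 1 of 11 members, Kdm3b, against 6.0% of all listed peaks, and at no member was it called lower (0.649% of all listed peaks). The median log2 change in input was 0.23 over the members and 0.22 over the list. Kdm3a exon 10 and Kat6b passed in both enrichment and IP (42.1% of all listed peaks did), and 5 member peaks passed in neither. The share of all listed peaks that passed in neither was not computed. None of the 4 enrichment calls and none of the 4 IP calls held when libraries were scaled by the listed peaks themselves (TMM), which moved the list's median enrichment change to -0.07 and the members' to 0.15. The values of each gene below are scaled to total reads.

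**Figure D3:**
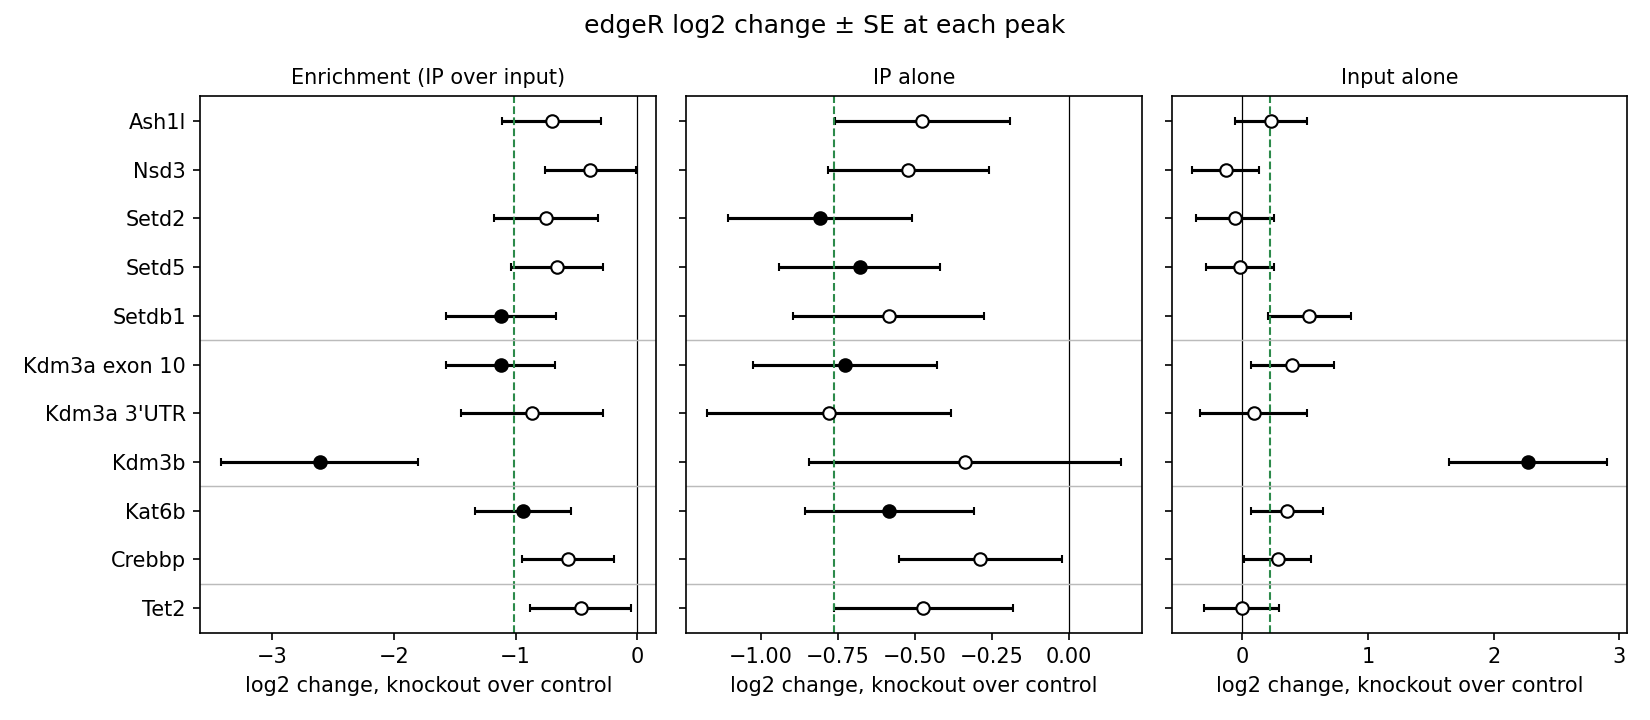
Log2 change of knockout over control in enrichment, IP and input for each member peak (edgeR estimate, bars are SE). Filled points passed the adjusted threshold, and the dashed line is the median of all listed peaks, -1.02 for enrichment.

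Among the methyltransferases, Setdb1, which trimethylates H3 lysine 9 and silences retroelements, was the member called lower in enrichment. Its enrichment was 4.9, 3.07 and 1.87 in knockout pools 1 to 3, against 4.35, 6.19 and 9.72 in control pools 1 to 3. Knockout pool 1 stood above control pool 1, and the other pools were separated by genotype. The log2 change was -1.12 (SE 0.45, edgeR adjusted p = 0.0305). Its IP was 21.1, 18.3 and 13.8 RPM in knockout pools and 18, 28.4 and 33.5 RPM in control pools, and its input 4.31, 5.97 and 7.38 RPM in knockout pools and 4.15, 4.59 and 3.45 RPM in control pools. Neither passed alone: IP had a log2 change of -0.59 (SE 0.31, edgeR adjusted p = 0.0774) and input one of 0.53 (SE 0.33, edgeR adjusted p = 0.368). The enrichment call was lost with a replicate block per pool (edgeR adjusted p = 0.0526) or by number (0.0587), and without knockout pool 2 (0.109), knockout pool 3 (0.189), control pool 2 (0.0737) or control pool 3 (0.175).

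Setd2, the enzyme that trimethylates H3 lysine 36 behind elongating RNA polymerase, had an IP of 23.7, 21.1 and 18.4 RPM in knockout pools, against 35.4, 31.3 and 44.0 RPM in control pools. All 3 knockout pools were below all 3 control pools, and IP fell by 0.81 on the log2 scale (SE 0.30, edgeR adjusted p = 0.0167). Its enrichment was 3.23, 1.98 and 3.37 in knockout pools and 5.12, 3.60 and 4.97 in control pools. The genotypes again did not overlap, while the change of -0.75 (SE 0.43) missed the threshold (edgeR adjusted p = 0.101). Input, at 7.34, 10.7 and 5.47 RPM in knockout pools and 6.91, 8.71 and 8.85 RPM in control pools, overlapped and had a log2 change of -0.06 (SE 0.31).

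Setd5, a SET-domain protein linked to chromatin of developmental genes, had the highest enrichment among the members in each knockout pool and in control pool 1, while Kat6b was higher in control pool 2 and Kdm3b in control pool 3. Its enrichment was 16.3, 12.6 and 16.1 in knockout pools and 22.3, 16.1 and 37.0 in control pools, and in the authors' deposited table its peak fold enrichment was 74. Control pool 2 lay within the range of the knockout pools, and the log2 change of -0.66 (SE 0.38) was not called (edgeR adjusted p = 0.102). Its IP was 178, 138 and 164 RPM in knockout pools, against 191, 238 and 341 RPM in control pools. The knockout pools were all below the control pools, and IP fell by 0.68 on the log2 scale (SE 0.26, edgeR adjusted p = 0.0202). Input was 10.9, 10.9 and 10.2 RPM in knockout pools and 8.56, 14.7 and 9.21 RPM in control pools, with a log2 change of -0.02 (SE 0.27).

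The IP calls of Setd5 and Setd2 were both lost without knockout pool 2 (edgeR adjusted p = 0.13 for Setd5 and 0.0807 for Setd2), knockout pool 3 (0.0761 and 0.0927) or control pool 3 (0.215 and 0.111). That of Setd5 was also lost in a fit of the IP libraries alone (0.0745).

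Nsd3, which dimethylates H3 lysine 36, had an IP of 182, 176 and 160 RPM in knockout pools, against 211, 260 and 273 RPM in control pools. The pools were separated by genotype, but the log2 change of -0.52 (SE 0.26) missed the threshold (edgeR adjusted p = 0.0632; DESeq2 on the same total reads gave 0.0233). Enrichment was 6.98, 6.88 and 5.30 in knockout pools and 7.12, 7.18 and 11.4 in control pools. Again no pool crossed over, by a narrow margin for 2 of the control pools, and the change of -0.39 (SE 0.37, edgeR adjusted p = 0.306) was the smallest among the members. Input was 26.1, 25.6 and 30.1 RPM in knockout pools and 29.6, 36.1 and 23.9 RPM in control pools.

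Ash1l, the trithorax-group methyltransferase of H3 lysine 36 that counters Polycomb silencing, had an enrichment of 3.12, 1.73 and 2.68 in knockout pools, against 2.66, 4.29 and 5.52 in control pools. Control pool 1 was below 2 of the knockout pools. Its IP, 51.4, 41.6 and 44.9 RPM in knockout pools and 54.5, 67.5 and 69.9 RPM in control pools, was separated by genotype. Input overlapped, at 16.5, 24.0 and 16.8 RPM in knockout pools and 20.5, 15.7 and 12.7 RPM in control pools. Neither change was called: enrichment had a log2 change of -0.71 (SE 0.40, edgeR adjusted p = 0.102) and IP one of -0.48 (SE 0.28, edgeR adjusted p = 0.112). Without control pool 1 both passed, at -1.01 (edgeR adjusted p = 0.00789) and -0.58 (edgeR adjusted p = 0.0213).

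**Figure D4:**
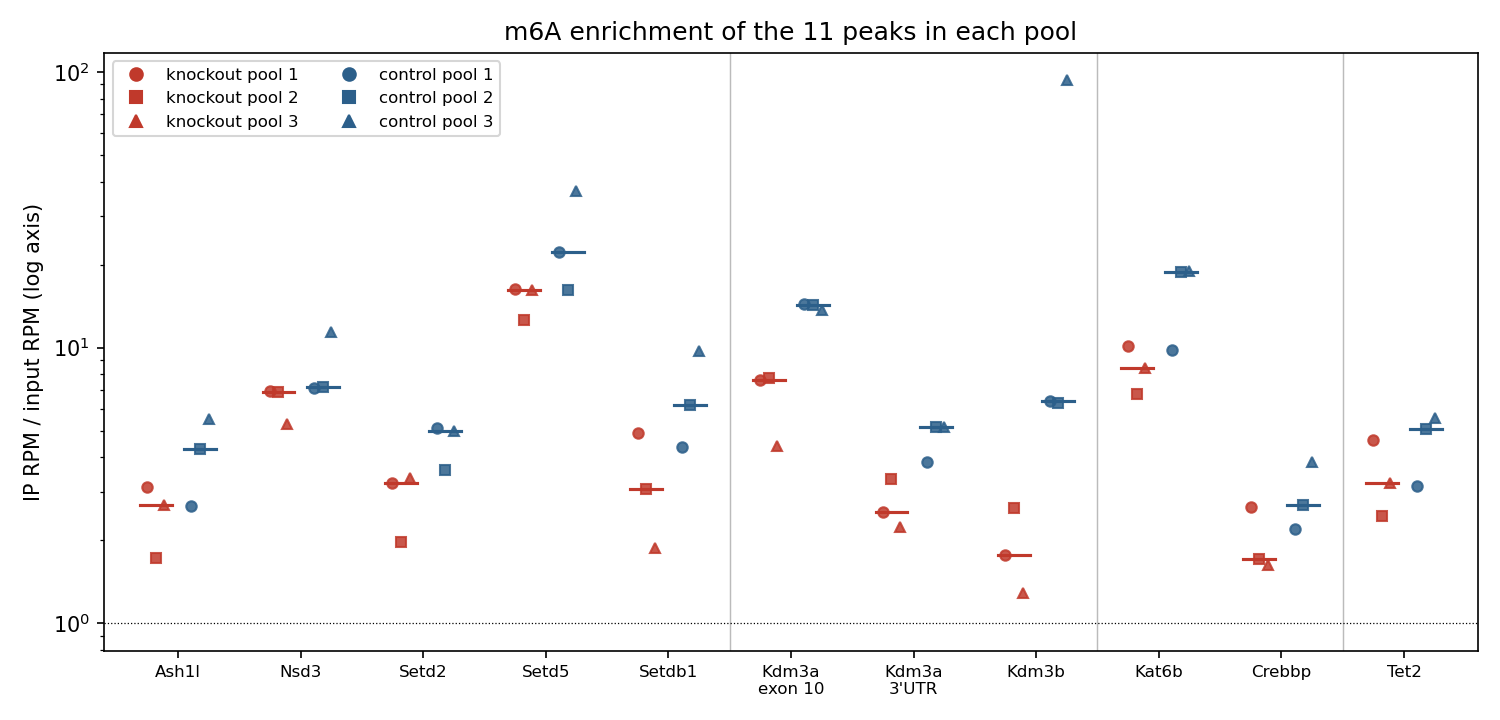
Enrichment (IP RPM over input RPM, log axis) of each member peak in the 3 knockout pools (left, red) and the 3 control pools (right, blue). Bars are medians and the dotted line is a ratio of 1; all points lie above it.

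Kdm3a, a Jumonji enzyme that removes mono- and dimethyl marks from H3 lysine 9, had 2 listed peaks with different outcomes in the test. At exon 10 enrichment was 7.61, 7.76 and 4.40 in knockout pools, against 14.3, 14.3 and 13.7 in control pools. The control pools lay close together and well above every knockout pool, with means of 6.59 ± 1.90 in knockout and 14.1 ± 0.343 in control pools (SD, n = 3 each). Enrichment fell by 1.12 on the log2 scale (SE 0.45, edgeR adjusted p = 0.0284). IP was 27.1, 25.6 and 18.1 RPM in knockout pools and 26.7, 52.2 and 38.3 RPM in control pools, and it fell by 0.73 (SE 0.30, edgeR adjusted p = 0.0279) although control pool 1 lay within the knockout range. Input, 3.56, 3.30 and 4.10 RPM in knockout pools and 1.86, 3.66 and 2.79 RPM in control pools, had a log2 change of 0.40 (SE 0.33).

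At the 3′UTR peak of Kdm3a, enrichment was 2.53, 3.35 and 2.23 in knockout pools, against 3.86, 5.16 and 5.15 in control pools. Here too all knockout pools were below all control pools, while the change of -0.87 (SE 0.58) was not called (edgeR adjusted p = 0.153). The peak was covered by few reads, with an IP of 7.40, 6.56 and 5.50 RPM in knockout pools and 6.36, 15.7 and 11.3 RPM in control pools. The difference in change between the 2 Kdm3a peaks was not tested. The enrichment call at exon 10 was kept with either replicate block, and both its enrichment and IP calls were lost without knockout pool 2 (edgeR adjusted p = 0.0865 and 0.0862), knockout pool 3 (0.15 and 0.158), control pool 2 (0.0835 and 0.219) or control pool 3 (0.086 and 0.0772). The IP call was also lost with the replicate block by number (0.0575).

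Kdm3b, a close relative of Kdm3a with the same substrate, had the largest change in enrichment among the members, and it came with a change in input. Enrichment was 1.77, 2.61 and 1.29 in knockout pools, against 6.43, 6.32 and 93.2 in control pools, and fell by 2.61 on the log2 scale (SE 0.81, edgeR adjusted p = 0.00917). The value of control pool 3 stood far above all others and rested on 1 input count, for which the exact 95% counting interval of the ratio was 16.4 to 3715. Input counts were 25, 31 and 45 in knockout pools and 7, 12 and 1 in control pools, while IP counts were 43, 66 and 57 in knockout pools and 44, 87 and 113 in control pools. Input did not overlap between genotypes and rose by 2.27 on the log2 scale (SE 0.63, edgeR adjusted p = 0.00894). IP overlapped, with a log2 change of -0.34 (SE 0.51, edgeR adjusted p = 0.518). Kdm3b also had the lowest peak fold enrichment among the members in the authors' deposited table, 2.06. Without control pool 3 the changes were -1.82 in enrichment (edgeR adjusted p = 0.113) and 1.81 in input (edgeR adjusted p = 0.127), and without knockout pool 3 they were -2.30 (0.0674) and 1.95 (0.0984), so both calls were lost in each case.

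Kat6b, the catalytic subunit of a MYST acetyltransferase complex that acts on histone H3, was the second member called in both enrichment and IP. Enrichment was 10.1, 6.78 and 8.40 in knockout pools, against 9.82, 18.7 and 18.9 in control pools. Control pool 1 lay within the knockout range, and the other 2 control pools were well above it. Enrichment fell by 0.94 on the log2 scale (SE 0.40, edgeR adjusted p = 0.0365) and IP by 0.58 (SE 0.27, edgeR adjusted p = 0.0488). IP was 79.9, 70.9 and 68.9 RPM in knockout pools and 67.3, 134 and 128 RPM in control pools, so control pool 1 was the lowest of all 6. Input, 7.92, 10.5 and 8.20 RPM in knockout pools and 6.86, 7.16 and 6.77 RPM in control pools, was higher in every knockout pool, and its log2 change of 0.35 (SE 0.29) was not called (edgeR adjusted p = 0.533).

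Both Kat6b calls sat near the threshold. The enrichment call was lost with the replicate block per pool (edgeR adjusted p = 0.0632) or by number (0.0727), and both calls were lost without knockout pool 2 (0.18 for enrichment and 0.158 for IP), knockout pool 3 (0.108 and 0.153), control pool 2 (0.139 and 0.236) or control pool 3 (0.15 and 0.197). The IP call was also lost without knockout pool 1 (0.0616), in a fit of the IP libraries alone (0.108) and with the block by number (0.0968).

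Crebbp encodes CBP, the coactivator that acetylates H3 lysine 27 at enhancers, and it had the most abundant peak region per length. Its input per kb of peak was 78.2 ± 15.3 RPM per kb in knockout pools and 64.3 ± 5.97 RPM per kb in control pools (SD, n = 3 each), while the other 10 regions averaged 5.83 to 32.4 RPM per kb in knockout pools and 1.66 to 35.6 RPM per kb in control pools. Its enrichment was among the lowest, at 2.63, 1.71 and 1.63 in knockout pools and 2.20, 2.68 and 3.84 in control pools. Control pool 1 lay within the knockout range, and neither the enrichment change of -0.57 (SE 0.38, edgeR adjusted p = 0.146) nor the IP change of -0.29 (SE 0.26, edgeR adjusted p = 0.293) was called. Its IP was 112, 95.9 and 103 RPM in knockout pools and 104, 123 and 152 RPM in control pools. Without control pool 1 its enrichment passed, with a change of -0.74 (edgeR adjusted p = 0.0223).

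Tet2, a dioxygenase that oxidises 5-methylcytosine in DNA towards its removal, had an enrichment of 4.62, 2.45 and 3.23 in knockout pools, against 3.16, 5.06 and 5.56 in control pools. Control pool 1 was below 2 of the knockout pools, and the log2 change of -0.47 (SE 0.42) was not called (edgeR adjusted p = 0.276). IP was 39.8, 31.3 and 33.0 RPM in knockout pools and 35.1, 55.0 and 54.5 RPM in control pools, with a log2 change of -0.47 (SE 0.29, edgeR adjusted p = 0.124). Input overlapped, at 8.61, 12.8 and 10.2 RPM in knockout pools and 11.1, 10.9 and 9.80 RPM in control pools (log2 change -0.01, SE 0.30).

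**Figure D5:**
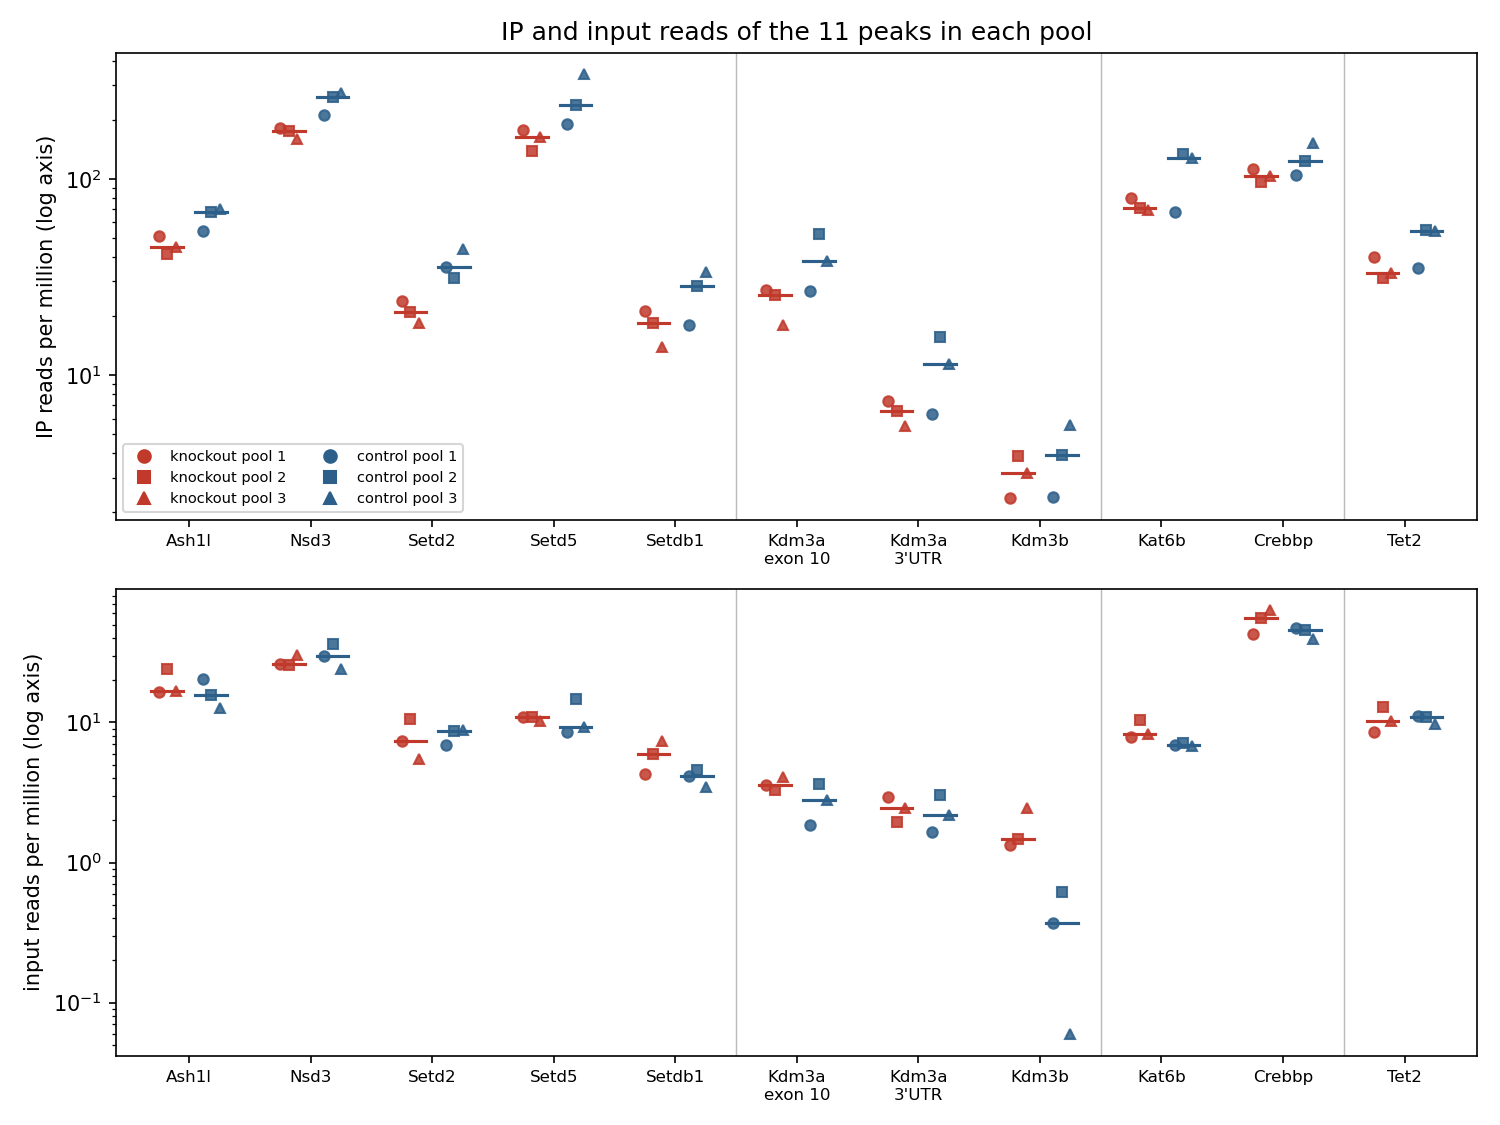
IP and input RPM (log axes) of each member peak in the 3 knockout pools (left, red) and the 3 control pools (right, blue), with medians as bars. Knockout IP lies below all control pools at 4 peaks, and knockout input lies above all control pools at Kat6b and Kdm3b.

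Across the set, the 3 knockout pools were all below the 3 control pools in enrichment at 5 peaks (both in Kdm3a, and Nsd3, Setd2 and Kdm3b), against 53.5% of all listed peaks. In IP this was so at 4 peaks (Ash1l, Setd5, Nsd3 and Setd2), against 46.4%, and in input the knockout pools were all above at 2 peaks (Kat6b and Kdm3b), against 21.9%. The opposite separation was seen at no member, in enrichment (3.0% of all listed peaks), in IP (3.89%) or in input (4.79%). Much of the overlap involved control pool 1: its enrichment was below the highest knockout pool at 5 of 11 members, against 41.4% of all listed peaks, while control pool 2 was so at 1 (14.1% of all) and control pool 3 at 0 (9.65% of all). Control pool 1 also had the lowest IP of the control pools at 10 of 11 members and at 84.7% of all listed peaks. Without it, enrichment was called lower at 7 members and IP at 9, with 976 of the 1233 listed peaks called lower in enrichment and 1037 in IP. In enrichment these added Ash1l, Crebbp and Setd5 (edgeR adjusted p = 0.0363). In IP they added Ash1l, Nsd3 (edgeR adjusted p = 0.00445), Kdm3a 3′UTR (0.00728), Setdb1 (0.00762) and Tet2 (0.0138).

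The wider families and partners held 127 further genes, of which 8 had a listed peak, 9 peaks in all. With the members included, a listed peak was found in 5 of 31 histone lysine methyltransferases, 3 of 23 histone demethylases, 4 of 15 histone acetyltransferases, 1 of 10 enzymes of DNA methylation and demethylation, and 5 of 26 partners of the members. None was listed among 9 protein arginine methyltransferases, 17 histone deacetylases and 9 histone ubiquitin enzymes. All 10 members have a listed peak, and the 5 listed methyltransferases are all members, so the choice of members partly sets these counts. The share of all genes with a listed peak was not computed, and the families were not compared. Enrichment was called lower at 1 of 5 methyltransferase peaks, 2 of 4 demethylase peaks, 2 of 5 acetyltransferase peaks, 0 of 1 DNA methylation peak and 2 of 5 partner peaks, against 55.6% of all listed peaks. A gene with no listed peak was not analysed here.

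Ncoa1, a steroid receptor coactivator that works with CBP, had 2 peaks in its transcript. IP fell at both, with log2 changes of -1.07 (SE 0.28, edgeR adjusted p = 0.00116) and -1.02 (SE 0.27, edgeR adjusted p = 0.00132). Enrichment changes were -0.73 (edgeR adjusted p = 0.0872) and -0.85 (edgeR adjusted p = 0.0463), the second called lower. Ogt, the O-GlcNAc transferase that binds TET proteins, was called lower in enrichment, with a log2 change of -1.25 (SE 0.45, edgeR adjusted p = 0.0181), and in IP, with one of -1.04 (SE 0.32, edgeR adjusted p = 0.00471), but its enrichment was low in both genotypes, at 1.84, 0.882 and 0.644 in knockout pools and 1.40, 2.07 and 3.84 in control pools. Cxxc4 and Cxxc5 encode zinc finger proteins that bind TET2 or unmethylated CpG. Cxxc4 was called lower in enrichment (log2 change -0.99, SE 0.38, edgeR adjusted p = 0.0254) and in IP (-1.06, SE 0.27, edgeR adjusted p = 0.000954). Cxxc5 was called lower in IP (-0.67, SE 0.27, edgeR adjusted p = 0.0249), with an enrichment change of -0.53 (edgeR adjusted p = 0.18). Under the same scaling by the listed peaks, the enrichment changes of Ncoa1 and Cxxc5 turned positive and the enrichment calls of Cxxc4 and Ogt were lost. The IP calls of both Ncoa1 peaks (edgeR adjusted p = 0.323 and 0.366), Ogt (0.65), Cxxc4 (0.291) and Cxxc5 (0.996) were lost under it too. Each of the enrichment calls of Cxxc4, Ogt and the second Ncoa1 peak was also lost without knockout pool 2, knockout pool 3, control pool 2 or control pool 3. That of Ncoa1 was lost besides without knockout pool 1 (edgeR adjusted p = 0.0735) and with the replicate block by number (0.0745) or per pool (0.0675). The Ogt IP call was lost without knockout pool 3 (0.0559) or control pool 3 (0.113). The Cxxc5 IP call was lost without knockout pool 2 (0.128), knockout pool 3 (0.128), control pool 2 (0.0606) or control pool 3 (0.0856), and in a fit of the IP libraries alone (0.0758).

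Morf4l1, which encodes the reader MRG15 of methylated H3 lysine 36 and a partner of ASH1L, went the other way. Its enrichment was 15, 46.2 and 7.83 in knockout pools, against 5.11, 1.48 and 1.76 in control pools, and rose by 2.74 on the log2 scale (SE 0.87, edgeR adjusted p = 0.0105), as 2.27% of all listed peaks did. The ratio rested on input counts of 5, 3 and 7 in knockout pools and 15, 23 and 15 in control pools. Neither part was called alone. IP overlapped between genotypes, with a log2 change of 0.88 (SE 0.53, edgeR adjusted p = 0.111). Input had one of -1.86 (SE 0.70, edgeR adjusted p = 0.0845), with all knockout pools below all control pools, as at 4.79% of all listed peaks. The enrichment call was lost without knockout pool 2 (edgeR adjusted p = 0.123), control pool 2 (0.0589) or control pool 3 (0.0531). Without control pool 1, IP of Morf4l1 was called higher, with a log2 change of 1.44 (edgeR adjusted p = 0.0144). Kat14, a subunit of an acetyltransferase complex, had an enrichment change of 1.57 (SE 0.91, edgeR adjusted p = 0.104). With DESeq2 and its own size factors Kat14 was called higher, at 2.53 (DESeq2 adjusted p = 0.0161), as were 63 of all listed peaks. Atf7ip, a partner that stabilises SETDB1, had -0.58 (SE 0.47, edgeR adjusted p = 0.238), and Riox1, a Jumonji oxygenase, had -0.79 (SE 0.59, edgeR adjusted p = 0.194).

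In the authors' deposited table every member peak was listed as lower in the knockout, with log2 fold changes of enrichment from -2.52 for Kdm3b to -0.442 for Nsd3. The members' median there was -0.878 and that of all listed peaks -1.17. The authors' log10 differential FDR, read as a score, ran from -16 for Ash1l to -3.31 for Kdm3a exon 10, against a limit of -2.02 for entry of the weakest listed peak. The order of the authors' scores differed from that of the edgeR calls: Ash1l, with the most extreme score, was not called, and Kdm3a exon 10, with the least extreme, was.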

How the data were processed

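Counts per peak and library and the total reads of each library were deposited by the authors. Per the file headers, RPM is the count scaled to the total reads, the authors' fold enrichment is a ratio of IP to input, and their log2 fold change compares genotypes. The deposited log10 FDR values were read as scores. Tools listed by the submitters' processing notes were HOMER 4.9.1, BWA 0.7.12 and fastp 0.19.11, with the build GRCm38.p6; the peak caller is not given in the sources used here. Labels call the 3 pools per genotype independent biological replicates, and IP and input with the same title number were taken as 1 pool.

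A quasi-likelihood model with 4 group means was fitted to the counts of all 12 libraries in R 4.3.3 with edgeR 4.0.16, taking deposited total reads as library sizes and no filter on low counts. Benjamini-Hochberg adjustment ran over 1233 peaks (threshold 0.05). The contrasts were the knockout over control change in the IP to input ratio, in IP and in input. Counts were simulated from the control means with the same spread for every peak, and 200 of 1233 peaks were changed, as many up as down. On these simulated counts the fit recovered 25% of enrichment changes of log2 size 1 and 95% of those of size 2. For input it recovered 59% and 99%. The data differ from that setting, with 55.6% of listed peaks called lower in enrichment, so these shares do not measure the power here. A change of log2 size 1 or less that was not called is still not shown to be absent. Alternatives used DESeq2 1.42.0, TMM, a mean input count of 10 or more, halved counts, replicate blocks and each pool left out. Intervals cover counting error only; PCR duplicates were not separable.

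Peaks were placed at their spliced midpoint on GENCODE M21 transcripts. Every peak of the 10 members was named, and of the wider lists every gene with a listed peak. The members and lists were chosen with earlier results of these data known, and the authors selected the table on these libraries, so the tests show only how far differences exceed the spread between pools. Symbols matched 1105 of 1108 identifiers.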

Additional observations from a re-analysis of the deposited data

How the results depend on the processing

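Scaling and single pools changed the calls. Scaling by the listed peaks forces their typical change towards 0: TMM left 0 members lower in enrichment (9 of all listed peaks) and 0 in IP (27 of all), and DESeq2 with its own size factors left 0 (17 of all) and 0 (47 of all). Under TMM these enrichment changes became positive: Ash1l 0.22, Tet2 0.49, Kdm3a 3′UTR 0.11, Setd5 0.30, Nsd3 0.54, Setd2 0.15, Kat6b 0.051, Crebbp 0.37, Atf7ip 0.39, Ncoa1 0.23 and 0.11, Riox1 0.14 and Cxxc5 0.34; with DESeq2 they were 0.25, 0.51, 0.13, 0.32, 0.57, 0.18, 0.071, 0.39, 0.41, 0.26 and 0.13, 0.17 and 0.38. So did IP under TMM for Ash1l 0.24, Setdb1 0.17, Tet2 0.27, Kdm3a exon 10 0.019, Setd5 0.070, Nsd3 0.20, Kat6b 0.19, Crebbp 0.44, Kdm3b 0.47 and Atf7ip 0.22; with DESeq2 they were 0.23, 0.16, 0.26, 0.0082, 0.059, 0.19, 0.18, 0.43, 0.47 and 0.21. Input turned negative for Kdm3a 3′UTR under TMM (-0.11) and DESeq2 (-0.15), and for Ash1l under DESeq2 (-0.018). None of these turned values was called. With total reads kept, DESeq2, the count filter and halved counts gave 4 members lower in enrichment each (770, 683 and 684 of all). In IP the filter and halved counts gave 4 each (798 and 827 of all). DESeq2 gave 6 in IP (849 of all), adding Nsd3 (DESeq2 adjusted p = 0.0233) and Kdm3a 3′UTR (0.0479). Same-numbered IP and input libraries deviated with correlations from -0.08 to 0.07, so the numbers were not shown to pair libraries. The replicate block by number called 2 members lower in enrichment (482 of all) and 2 in IP (627 of all). The block per pool called 2 in enrichment (520 of all), and a fit of IP libraries alone called 2 in IP (648 of all). Leaving out each pool gave 0 to 7 members lower in enrichment (91 to 976 of all), 0 to 9 in IP (245 to 1037 of all), and 0 to 1 higher in input (31 to 119 of all). Without 1 pool, input changes near 0 spanned it: Tet2 -0.17 to 0.12, Setd5 -0.17 to 0.27, Setd2 -0.35 to 0.14, Nsd3 -0.27 to 0.025 and Kdm3a 3′UTR -0.10 to 0.35. Input counts of 30 or less were odd in 86.9% of cases, of unstated origin, and low input limits the precision at Morf4l1, Kat14 and Kdm3b.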
